A study of Gallus gallus with 2 samples.

Results

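EDQM3 (gene ID 110224122) and EDCH1 (gene ID 110224118) are genes of the chick epidermal differentiation complex (EDC) whose RNA was abundant in the undamaged auditory epithelium and much less abundant after streptomycin. By the ratio of their levels, EDQM3 was 96.4-fold lower at post-SM6 than at SM0, and EDCH1 was 8.56-fold lower. The members were taken by their symbols and are 2 of 23842 genes in the deposited tables. They had been picked because they were among the genes with the lowest weighted average difference, a log2 difference weighted by the mean level of the gene, at ranks 3 and 6 of all genes, so their own levels and changes are given as a description and not as a test.

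RNA was sequenced from basilar papillae (BPs), the auditory sensory epithelium of birds, which were dissected from male Momiji chicks at posthatch day 1 and kept as free-floating explants. The SM0 explants were taken before streptomycin (SM) exposure, at 0 h. The post-SM6 explants were exposed to SM, an aminoglycoside that kills hair cells (HCs), for 48 h and then cultured for 6 h without it. The post-SM6 explants were thus collected 54 h from the start of exposure. In both groups the surrounding tissue was taken off with thermolysin before RNA was extracted from 50 pooled BPs. The labels name HCs and supporting cells (SCs) as the cells at SM0 and SCs alone at post-SM6. Each time point has 1 library, so no difference could be checked against replicates and there are no p-values. No explants cultured for the same time without SM were analysed here, so SM, time in culture and the chicks that made up each pool cannot be told apart as sources of a difference.

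The EDC is a gene cluster found in birds and mammals. It encodes proteins of the cornified envelope, a cross-linked shell. Keratinocytes build this shell as they turn into the dead outer layers of skin, scales, claws and feathers. Genes of the S100 family, small calcium-binding proteins, flank the cluster, and in birds it also holds genes of beta-keratins, the main proteins of feathers and scales. EDQM3 is named for a glutamine motif in its protein and EDCH1 for motifs of cysteine and histidine. What either protein does in the inner ear was not a subject of the study.

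Expression is given as TPM, in which reads are first corrected for the length of a transcript and each library then adds up to 1 fixed total. TPM can therefore be compared between genes within a library. They keep no sequencing depth, and read counts of the members were not used here, so no counting interval is given. A change is the log2 of the ratio of post-SM6 to SM0 after 0.1 TPM was added to each, which makes it smaller than the ratio itself where TPM are low. Genes were counted as higher or lower when they differed by at least 1.3-fold on this scale, among the 13321 genes that reached 1 TPM in at least 1 library. The median change of these genes was -0.02.

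The level of EDCH1 was 874 TPM before SM and 102 TPM at post-SM6. In the order of levels it went from rank 171 to rank 1293 of 23842 genes, so it remained well expressed after SM. Its log2 change was -3.10. Among genes that reached 1 TPM, 162 (1.22%) had a change as low as that of EDCH1 or lower.

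The level of EDQM3 was 382 TPM before SM and 3.96 TPM at post-SM6. It went from rank 325 to rank 10513 and so from among the more abundant transcripts to among the scarce ones. The log2 change was -6.56, and 5 genes (0.0375%) had a change as low or lower. The other 4 had from 15.1 to 78.0 TPM at SM0 and were listed at 0 at post-SM6, and no fold is given for them. Of the 1298 genes with at least 100 TPM at SM0, EDQM3 had the lowest change (1 gene, 0.077%), and 14 genes (1.08%), EDCH1 included, had a change as low as that of EDCH1 or lower. This set was formed by the level at SM0 alone, which favours low changes. EDQM3 did not reach 100 TPM at post-SM6, so its place in the set is a description.

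The members did not change in proportion. EDCH1 had 2.29 times the TPM of EDQM3 at SM0 and 25.8 times at post-SM6. The log2 changes were 3.46 apart, which is a difference between single libraries. Together they took 0.126% of the SM0 library's TPM and 0.0106% of that of post-SM6.

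**Figure D1:**
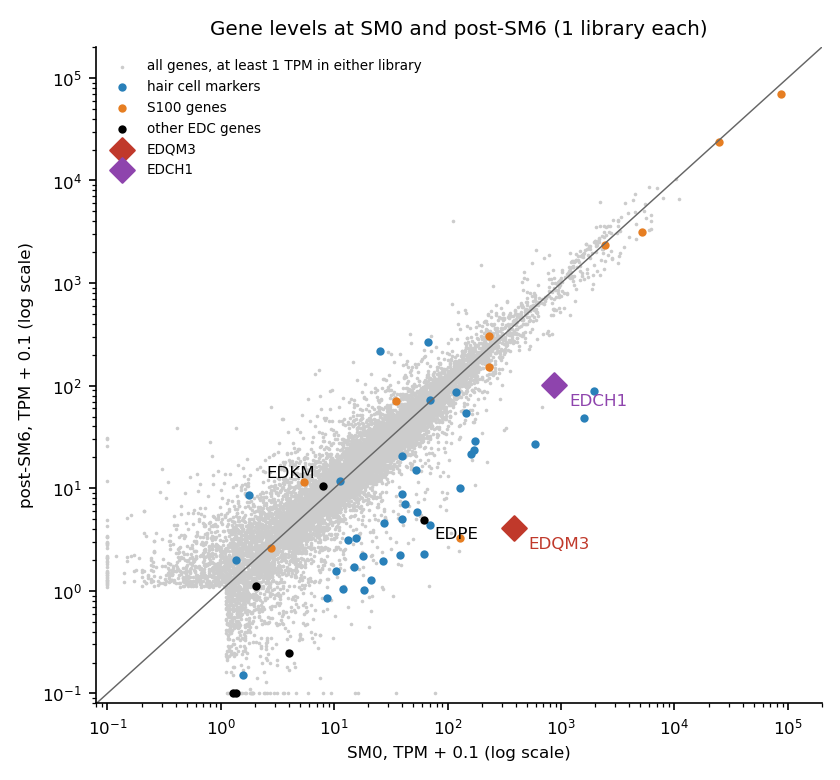
TPM + 0.1 at post-SM6 against TPM + 0.1 at SM0 on log axes, 1 library each, with the line of equal levels; each point is 1 gene that reached 1 TPM. EDQM3 (382 and 3.96 TPM) and EDCH1 (874 and 102 TPM) lie far below the line, as do most HC markers, while most S100 genes lie near it.

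Few other genes of the EDC reached 1 TPM. A list of 49 further EDC symbols found 28 genes in the tables, of which 14 were listed at 0 in both libraries. The 14 others were detected in at least one, and 6 had TPM of at least 1 in either. At SM0 the members stood far above all of these: EDCH1 had 14.2 times and EDQM3 had 6.22 times the TPM of EDPE, the next gene of the list. LOC408038, which is not on the list but lies in the stretch of chromosome 25 described below, had 91.1 TPM at SM0, more than EDPE. Of the 6 genes, 5 were lower and 1 was higher at post-SM6, where 23.3% of all genes were lower and 23.9% were higher. EDMTF1, EDCH4 and EDQM2 passed the minimum of 1 TPM at SM0 alone and so could not be higher, and the count is a description.

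EDPE had 61.4 and 4.82 TPM and a log2 change of -3.64. At post-SM6 it was more abundant than EDQM3. EDQREP had 1.95 and 1.02 TPM. EDKM was the gene that was higher, with 7.84 TPM before and 10.4 TPM after SM. These 3 genes reached 1 TPM in both libraries, and 2 of them were lower. The change of EDKM, 0.40, was close to the limit of 0.38.

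EDMTF1 went from 3.87 to 0.15 TPM. EDCH4, of the same named family as EDCH1, and EDQM2, of that of EDQM3, had 1.25 and 1.17 TPM at SM0 and were listed at 0 at post-SM6. The rest of both families, EDCH2, EDCH3, EDCH5 and EDQM1, was listed at 0 in both libraries. The abundance of EDCH1 and EDQM3 was thus not shared by their named relatives in these tables. The loricrin genes LOR1 and LOR3, which code for a main component of the cornified envelope, stayed under 1 TPM throughout and had 0.34 and 0.18 TPM at SM0. Cornulin (CRNN) and scaffoldin (SCFN), which join an S100 domain to long repeats, had 0.69 and 0.33 TPM at SM0 and were also below 1 TPM after SM. EDBETA, EDCRP, EDWM and EDYM1 were among the genes listed at 0 in both. Members of EDC families can share reads where their sequences are alike, which was not examined here.

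In the RefSeq order of GRCg7b, both members lie on chromosome 25 between the genes called S100A11 and S100A9 in the tables, which is where the EDC is found in the chick. RefSeq lists EDCH1 under the symbol MHM2, with EDCH1 as a synonym, and EDQM3 as LOC110224122, with EDQM3 and NKx-2.3 as synonyms. The names used here are those of the deposited tables. Of 113 genes between these S100 genes, 84 are in the tables. The members held 87.8% of the TPM of those 84 genes at SM0 and 76.6% at post-SM6. Of the 82 others, 59 were listed at 0 in both libraries and 8 had TPM of at least 1 in either. This stretch was chosen as a frame after its values were seen.

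The 8 genes are EDPE, EDQREP, EDCH4, EDQM2, EDKM and 3 genes known by ID. Of the 8, 7 were lower and EDKM alone was higher at post-SM6, beside 23.3% and 23.9% of all genes. EDCH4, EDQM2, LOC431313 and LOC107055092 reached 1 TPM at SM0 alone and so could not be higher, and the count is a description. LOC408038 (gene ID 408038), a protein-coding gene, had 91.1 and 14.2 TPM and a log2 change of -2.67. LOC431313, also protein-coding, had 2.45 and 0.22 TPM, and the long noncoding LOC107055092 had 3.87 and 0.14 TPM. Some of the genes that reached 1 TPM are neighbours in the tables' order: EDPE and EDQREP, the 3 genes known by ID, EDQM3 and EDCH4, and EDKM and EDCH1.

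EDQM3 and EDCH1 are not neighbours. On one side of EDQM3 are EDGH, listed at 0 in both libraries, and LOR1. On the other are EDCH4 and EDCH3. EDCH1 lies at the end of the stretch, with EDKM and EDQM1 on one side and S100A9 and LOC101747386 on the other. Neighbours were taken among the genes with values, and some genes of the stretch have none. The nearest such genes to EDCH1 were higher at post-SM6, EDKM as above and S100A9 at 35.2 TPM before and 71.5 TPM after SM. LOC101747386 had 44.8 and 59.7 TPM. The nearest genes with values on either side of EDCH1 thus went the other way from it, EDKM by a change close to the limit.

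**Figure D2:**
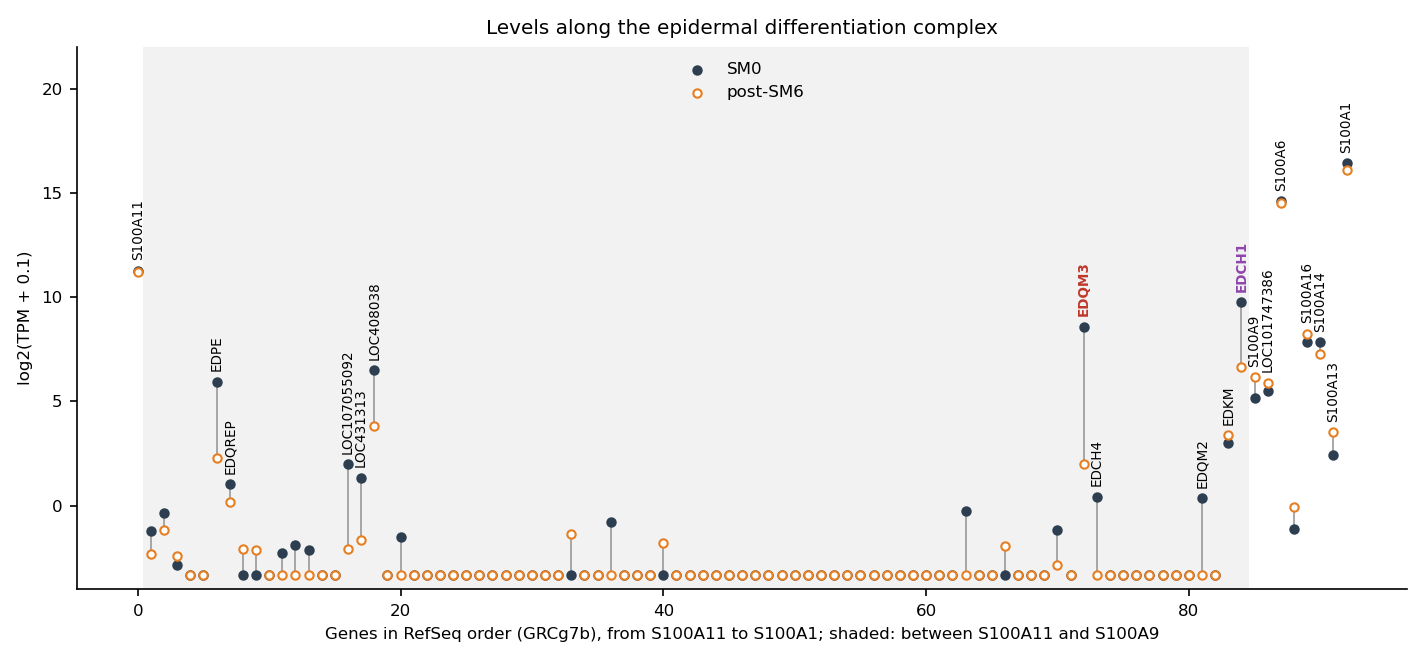
log2(TPM + 0.1) at SM0 (filled) and post-SM6 (open) for the genes in the tables, in RefSeq order from S100A11 to S100A1; the shaded stretch holds the 84 genes between S100A11 and S100A9, and genes that reached 1 TPM are named. EDQM3 and EDCH1 are the highest points of the stretch at SM0, most of its genes sit at 0 TPM, and EDCH1 is lower at post-SM6 beside neighbours that are higher.

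S100 genes at the flanks ranged widely in level. S100A11, at one flank, had 2458 TPM before and 2337 TPM after SM. S100A6 had 24827 and 23576 TPM, and S100A1 had 87560 and 70025 TPM. S100A9, S100A13 and S100A4, on the side of S100A1, were far lower, and S100A4 had 0.36 and 0.85 TPM. S100A10, which is not between S100A11 and S100A1 in the RefSeq order, had 5212 and 3159 TPM. Of 10 S100 genes that reached 1 TPM, 3 were higher and 3 lower, beside 23.9% higher and 23.3% lower of all genes. The median log2 change of these S100 genes was -0.09. S100Z had the lowest change among them, -5.31, and no other S100 gene had a change below that of EDCH1.

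Other genes counted from a list for stratified and cornifying epithelia did not share the direction of EDQM3 and EDCH1 as a group. The 53 symbols of the list found 39 genes, and TGM1, TGM5, CDSN, ALOX12B and ALOXE3 were among those not found. Genes found but under 1 TPM in both libraries, among them KRT10, TGM3, ABCA12 and SPIK5, were not counted. The counts say nothing of the genes not found or not counted. Of 31 that reached 1 TPM, 14 were higher and 7 lower at post-SM6, beside 23.9% higher and 23.3% lower of all genes. Among the 31, 3 reached 1 TPM at post-SM6 alone and so could not be lower. KRT6A reached it at SM0 alone and so could not be higher, and the count is a description. The median log2 change of the 31 was 0.28. The 39 genes found added up to 2699 TPM before SM and 2660 TPM after it, of which CLDN1 was the largest part. CLDN1, a tight junction protein of many epithelia, had 1531 and 1174 TPM, and KRT19, a keratin of simple epithelia, had 269 and 358 TPM. DSG2 and JUP, desmosome proteins, had 203 and 247 TPM and 170 and 137 TPM. None of the 31 had a change as low as that of EDCH1, and the lowest was that of KRT6A, -2.37.

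Some genes of the basal layer of skin were chosen from this list after their values were seen. KRT14, a keratin of that layer, had 40.9 TPM before and 119 TPM after SM, and its partner KRT5 had 1.97 and 3.16 TPM. TP63, the transcription factor of stratified epithelia, went the other way, with 16.5 and 3.48 TPM. The keratin gene KRT15 stayed under 1 TPM, with 0.18 and 0.34 TPM. Elsewhere in the list, and not as genes of the basal layer, KRT75 and SULT2B1 were listed at 0 in both libraries.

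HC markers were lower with EDQM3 and EDCH1. All 36 genes found for the HC list, 2 of which share the symbol POU4F3, had TPM of at least 1 at SM0. STRC, also listed, was not found. After SM, 30 were lower and 4 higher, beside 23.3% lower and 23.9% higher of all genes. The median log2 change of the list was -2.89, and its summed TPM went from 5846 to 1060. Among the most abundant, OCM, a calcium buffer of HCs, went from 1966 to 88.4 TPM. NRGN, which binds calmodulin, went from 1587 to 48.7 TPM, and the neuropeptide gene CCK from 593 to 26.9 TPM. OCM, NRGN and CCK made up most of the list's sum at SM0 and most of its fall. They held ranks 2, 1 and 4 for the lowest weighted average difference, the value by which the members were picked. ATOH1, the transcription factor that starts HC differentiation, was higher, with 66.5 and 267 TPM. The other higher genes were CALB2, with 25.3 and 218 TPM, PVALB, with 1.67 and 8.40 TPM, and TMC1, with 1.26 and 1.89 TPM. The change of EDQM3 was below that of every HC marker in the list, and that of EDCH1 had 15 of the 36 below it. Of the 6 other EDC genes that reached 1 TPM, 4 had a change below that of EDCH1. These were EDPE and the 3 that reached 1 TPM at SM0 alone. In bulk RNA, fewer cells of a type and less RNA per cell cannot be told apart, and in which cells of the BP EDQM3 and EDCH1 are expressed was not tested.

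SC markers were not lower as a group. Of 20, 8 were higher and 3 lower, beside 23.9% higher and 23.3% lower of all genes. The median log2 change of the SC markers was 0.26, and they added up to 6819 TPM before and 6915 TPM after SM. TECTB, which codes for a protein of the tectorial membrane, had 3950 and 2802 TPM, and TECTA, another, had 344 and 462 TPM. The connexin gene GJB6 had 469 and 1292 TPM, and the Notch target HEY1 had 532 and 585 TPM. Besides TECTB, the lower genes were SOX2, with 146 and 77.2 TPM, and SLC1A3, with 211 and 76.2 TPM. No SC marker had a change as low as that of EDCH1.

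Of the markers of other cells, those of neurons and glia and of erythrocytes were lower with EDQM3 and EDCH1. The counts that follow stand beside 23.3% lower and 23.9% higher of all genes. In neurons and glia, 9 of 12 genes were lower and 1 was higher, with sums of 581 TPM before and 261 TPM after SM. In erythrocytes, 3 of 3 were lower, with sums of 25.7 and 10.5 TPM, and HBBR, HBE, HBZ and HEMGN were listed at 0 in both. Sums were higher at post-SM6 for fibroblasts (87.2 and 597 TPM, 15 of 15 genes higher), leukocytes (50.2 and 222 TPM, 10 of 10), melanocytes (25.8 and 189 TPM, 6 of 7, with TYR listed at 0 in both), cartilage (406 and 638 TPM, 8 of 12) and the tegmentum vasculosum (119 and 319 TPM, 7 of 10). Of these genes, 5 of the leukocyte, 3 of the melanocyte, 2 of the cartilage, 1 of the tegmentum vasculosum and 1 of the fibroblast list reached 1 TPM at post-SM6 alone and so could not be lower. Likewise, 4 of the HC and 3 of the neuron and glia list reached it at SM0 alone. Single genes made up much of some sums. EDNRB2 had 6.61 and 131 TPM in the melanocyte list, in which TYRP1 and DCT stayed under 1 TPM. OC90 had 62.4 and 225 TPM in the tegmentum vasculosum list. The part of these cell types in the levels of EDQM3 and EDCH1 was not tested.

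**Figure D3:**
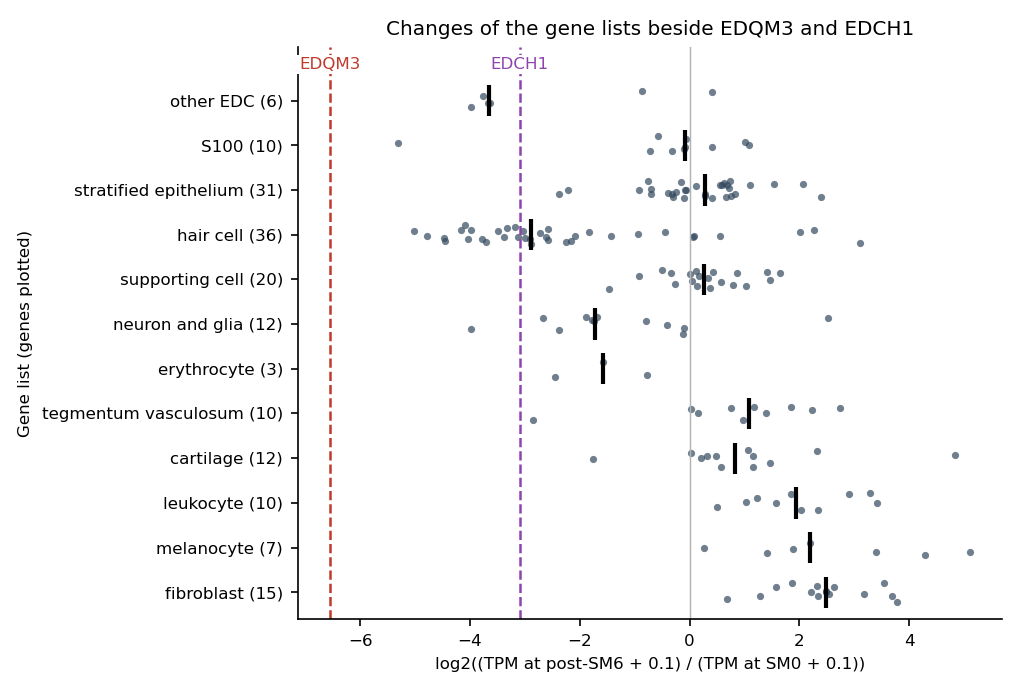
log2 change from SM0 to post-SM6 for each gene (points, spread vertically for sight) and the median (bar) of 12 gene lists, with the number of genes that reached 1 TPM in brackets; dashed lines mark EDQM3 and EDCH1. EDQM3, at -6.56, lies below every gene plotted. EDCH1, at -3.10, lies within the range of the HC, other EDC, S100 and neuron and glia lists and below every SC marker.

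The genes most like each member were found as the nearest by level in both libraries, on the log2(TPM + 0.1) scale. This measure rests on 2 values a gene and says nothing of shared function. EDQM3 had no close match: its nearest gene, S100Z, was 1.59 log2 units away, with 130 and 3.17 TPM. LOC101748751, TMEM255B, KCNAB1, SNCG, CHRNA10, NEFM, SLC7A14, TRIM36 and LRTOMT followed. KCNAB1, a potassium channel subunit, had 107 and 3.59 TPM. CHRNA10, a subunit of the acetylcholine receptor of HCs, had 129 and 9.86 TPM, and the neurofilament gene NEFM had 96.8 and 6.00 TPM. All 10 were less abundant than EDQM3 at SM0 and changed less.

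EDCH1 had a closer match in GPX2, a glutathione peroxidase, at 0.79 log2 units, with 685 and 62.5 TPM. OCM and NRGN came next, at 1.19 and 1.37 log2 units. The other 7, from FDFT1 to HSPB9, were less abundant at SM0 and changed less, with log2 changes from -1.59 to -0.93. FDFT1 and FDPS, enzymes of sterol synthesis, had 353 and 140 TPM and 303 and 101 TPM. No gene was among the 10 nearest of both members.

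**Figure D4:**
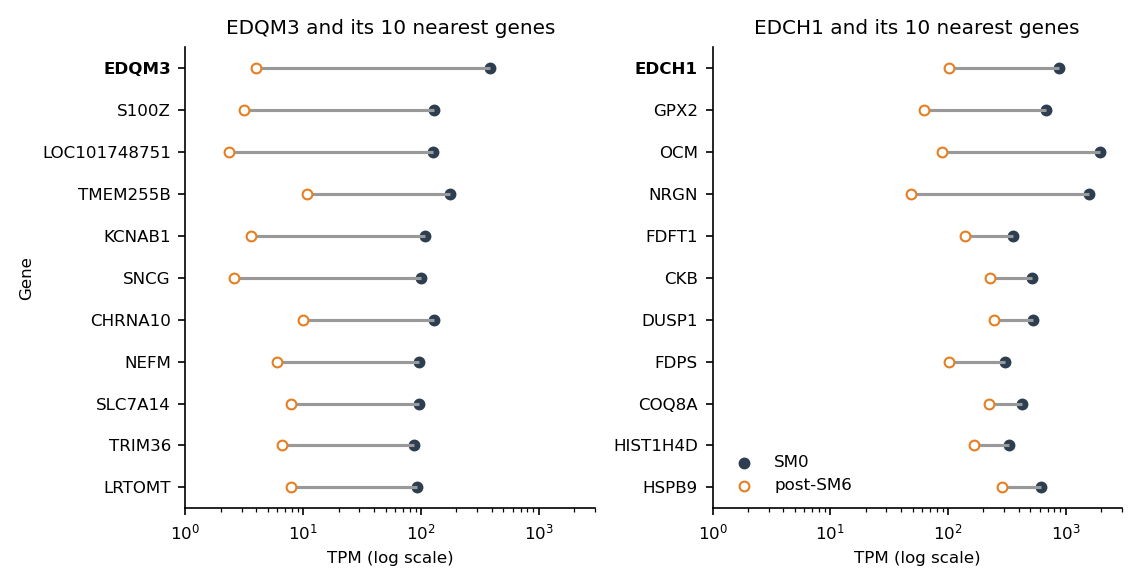
TPM at SM0 (filled) and post-SM6 (open) on a log axis for EDQM3 (left) and EDCH1 (right), each above its 10 nearest genes in order of distance over both libraries. The genes near EDQM3 start lower at SM0 and span a smaller fold, and beyond GPX2, OCM and NRGN those near EDCH1 change less than it does.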

How the data were processed

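RNA-seq of chick BP explants at SM0 and post-SM6, with 1 library of 50 pooled BPs each, was analysed from the deposited tables. Before deposit, the authors removed ribosomal RNA reads with Bowtie2 (2.1.0), aligned the rest to GRCg6a with STAR (2.7.1a) and estimated expression as TPM with RSEM (1.3.0). RSEM divides reads that match several genes, so values of near-identical genes are estimates. From the TPM, levels, ranks and log2 changes were computed with a pseudocount of 0.1. The weighted average difference was computed with TPM under 1 set to 1. Count tests were not used, because the deposited tables hold TPM, and the study's read counts were not used here.

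Genes were matched by gene ID to the RefSeq table of GRCg7b for their order (19594 of 23842 IDs). Its coordinates are not printed, since the build differs, and a search for EDC and keratin genes by description could not be made in it. Protein and promoter sequences were not used here. The members and gene lists were chosen with earlier results of these data known. Named genes are the members, EDC genes with TPM of at least 1, the neighbours of the members, their 10 nearest genes and the 4 most abundant genes of the S100, stratified epithelium, HC and SC lists. Other genes were named after their values were seen. Of the other cell type lists, counts and sums are given. Alternatives were other pseudocounts, minimums, folds and scalings. The code was tested on simulated data. Python 3.11.15, numpy 2.4.6, pandas 2.3.3 and matplotlib 3.10.9 were used.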

Additional observations from a re-analysis of the deposited data

How the results depend on the processing

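Both members were lower at post-SM6 under every alternative pseudocount and scaling, the settings that alter the change of a single gene. The log2 change of EDQM3 was -6.27 with a pseudocount of 1, -6.59 with 0.01, -6.53 after scaling post-SM6 by its median ratio to SM0 over the 8281 genes averaging 10 TPM or more, and -6.59 with TPM rescaled without the 10 most abundant genes. That of EDCH1 was -3.09, -3.10, -3.07 and -3.13 under the same settings. The counts of other EDC genes rest on few genes and moved more. From 5 of 6 lower, they went to 1 of 2 with a minimum of 5 TPM, beside 2179 of 10508 of all genes. With no minimum, 10 of 14 were lower, beside 5134 of 18552. A minimum of 1 TPM in the mean of both libraries, added after the data were seen, gave 3 of 4 lower. Of all genes, 2880 of 12853 were lower there. EDKM, the only higher gene, was no longer counted (0 higher) with a pseudocount of 1 or a fold of 2. Nor was it counted with TPM rescaled without the 10 most abundant genes. With no minimum, 4 of 14 other EDC genes were higher, beside 4683 of 18552 of all genes. With a fold of 2, the lower S100 genes went from 3 to 1. Stratified epithelium genes then went from 14 to 4 higher and from 7 to 2 lower, and SC markers from 8 to 4 higher and from 3 to 1 lower, where 9.56% of all genes were higher and 7.83% lower. With a minimum of 5 TPM, the higher leukocyte genes went from 10 of 10 to 5 of 5, beside 2162 of 10508 of all genes. The median change of all genes was 0.01 in place of -0.02 after scaling by the median ratio. No paired analysis was possible because each time point has 1 library, and no library could be left out. TPM carry no depth, and the reads behind the 3.96 TPM of EDQM3 at post-SM6 were not analysed here.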
